A study of Mus musculus with 42 samples.

Results

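The comparison described here asked which RNAs were recovered less, or more, with the protein Tnrc6a in mouse embryonic stem cells labelled as lacking Trim71. It was chosen by sample labels alone and covers 12 of the 42 libraries of the series, all from experiment 1. They form 4 groups of 3 libraries. The input and the immunoprecipitate (IP) of cells with HA-AVI-tagged Tnrc6a, called tagged here, were set against the input and the IP of cells that carry the same tag and are labelled Trim71-/-, called Trim71KO. Both lines derive from 129S6/SvEvTac embryonic stem cells that contain a yGlob reporter (GFP_5xT71BS) and stably express FLAG-Cas9 with a blasticidin marker, and both were grown on gelatin in medium with serum and LIF. RNA from lysate (input) and RNA bound to anti-HA magnetic beads (IP) was sequenced after stranded total RNA library preparation. The labels do not say whether a line is a single clone, whether an IP and an input of the same number came from the same lysate, or how the tag was introduced. The p-values therefore measure the spread between these libraries, which may be technical.

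Tnrc6a is a GW182-family scaffold protein. Argonaute proteins loaded with microRNAs bind GW182 proteins, which in turn recruit deadenylase and decapping factors, so that the bound mRNA is repressed and degraded. Trim71, also called Lin41, is an RNA-binding protein of the TRIM-NHL family that is present in embryonic stem cells and early embryos and is known to repress mRNAs through sites in their 3′ untranslated regions. Argonaute-independent contact between an RNA-binding protein and a GW182 protein is a known way of repressing mRNAs.

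The quantity tested was log2 IP over input of the Trim71KO cells minus that of the tagged cells, called the ratio change. A ratio falls when the IP level falls, when the input level rises, or through both, so the IP level and the input level were also tested apart, each as Trim71KO minus tagged. A gene was called when its Benjamini-Hochberg adjusted p from edgeR's quasi-likelihood test was under 0.05 over all 18772 genes tested, and the verbs rose and fell are used for called changes. Levels are CPM, read counts scaled to the TMM-adjusted library size, given per library in the order of replicate numbers 1, 2 and 3, or as mean ± SD with n = 3. Library totals ran from 12587257 to 19965489 counts, and the median standard error (SE) of the ratio change was 0.22 on the log2 scale.

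Some libraries stood apart from the other members of their group. Over well-measured genes the SD of a library's deviation from its group mean was 0.23 and 0.20 on the log2 scale for Trim71KO IP 1 and 3 and 0.17 and 0.19 for tagged input 1 and 2, against 0.06 to 0.14 in the other 8 libraries. Markers of embryonic stem cells were abundant in both lines. Summed over 12 genes they ranged from 7603 to 8200 CPM in tagged input and from 8644 to 8812 CPM in Trim71KO input. Markers of primitive endoderm, the extra-embryonic lineage that such cultures can shed, ranged from 238.8 to 353.1 CPM in tagged input and from 165.2 to 169.7 CPM in Trim71KO input. In input 10 of these 12 genes fell, against 17.4% of all genes. Fewer such cells and less RNA per cell cannot be told apart here. None of the 24 genes of these marker lists was called in the ratio change. As 3.74% of all genes were called, a list of 24 is too short to read this as a difference.

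The targeted genes were examined first. Trim71 RNA did not check the genotype label. In input it stood at 265.0, 227.0 and 229.8 CPM in tagged cells and at 284.1, 283.2 and 278.2 CPM in the libraries labelled Trim71KO, which is higher in each of these. The Trim71 transcript was nevertheless among the RNAs whose ratio fell. Its IP level was 968.5, 973.0 and 1110 CPM in tagged cells and 365.0, 344.7 and 354.7 CPM in Trim71KO cells, with no overlap, and the ratio change was -1.75 (SE 0.12, edgeR adjusted p 2.02e-09). Recovery of Trim71 RNA over input was 4.23-fold in tagged and 1.26-fold in Trim71KO cells, while beads without tagged protein gave 0.792-fold. The labels do not say which part of the Trim71 gene was altered.

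The bait's own mRNA was the most strongly recovered RNA among the named genes. Tnrc6a stood at 19740, 19640 and 29470 CPM in tagged IP and at 13370, 17590 and 21760 CPM in Trim71KO IP, groups that overlap, and its IP level was not called (-0.39, edgeR adjusted p 0.0829). In input it was 95.14, 57.12 and 81.94 CPM in tagged cells and 105.8, 112.2 and 107.9 CPM in Trim71KO cells. The resulting ratio change of -0.86 (SE 0.24, edgeR adjusted p 0.0476), from 294-fold to 162-fold, lay close to the threshold. This call held without tagged input 1, tagged IP 1 or 2, or Trim71KO IP 3 and was lost without each of the other 8 libraries, with changes from -0.96 to -0.62 over the 12 fits. It was also lost with RLE size factors (adjusted p 0.0514), with library size alone (0.102) and with only the compared groups in the fit (0.137). How much tagged protein the beads held was not measured in these files. The correlation of an IP library with the mean of its own input was 0.598, 0.659 and 0.609 in tagged cells. It was 0.617, 0.705 and 0.746 in Trim71KO cells. Whether recovery as a whole differed between the lines, and its part in the falls of the ratio, was not tested.

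Falls in the ratio far outnumbered rises. A change was called for 703 of 18772 genes (3.74%), a fall for 652 (3.47%) and a rise for 51 (0.272%). Among them 248 of the falls and 3 of the rises reached 2-fold. At an unadjusted p under 0.05 there were 2810 genes, and the median change of all genes was -0.04. The balance depended on the libraries that stood apart. Without Trim71KO IP 1 there were 847 lower and 588 higher calls, so that 41% were higher, against 7.25% with all libraries. Without tagged input 1 the counts were 606 and 245, without tagged input 2 they were 400 and 104, and without Trim71KO IP 3 they were 379 and 147. Scaling moved the balance as well. With library size alone the median of all genes shifted from -0.04 to 0.07 and there were 408 lower and 133 higher calls, 24.6% of them higher, and with DESeq2 22.4% were higher.

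The IP and input levels separated these falls into kinds. Taken alone, the IP level was called for 6647 genes (35.4%), lower for 3957 (21.1%) and higher for 2690 (14.3%). The input level was called for 6377 genes (34%), higher for 3102 (16.5%) and lower for 3275 (17.4%). Shared shifts seldom gave a call in the ratio. The IP and the input were both called lower for 2090 genes, of which 1.96% were called lower in the ratio, and both called higher for 1777 genes, of which 0.563% were. Of the 652 genes whose ratio fell, 525 (80.5%) had a lower IP level. The IP level fell with input not called in 344 (52.8%) and fell further than input in 41 (6.29%), together 385 genes (59%). In another 140 (21.5%) the IP level fell while the input level rose. The remaining 127 genes had no called fall in IP. In 117 of these (17.9%) the input level rose while the IP level was not called, and in 10 (1.53%) input rose more than IP.

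**Figure D1:**
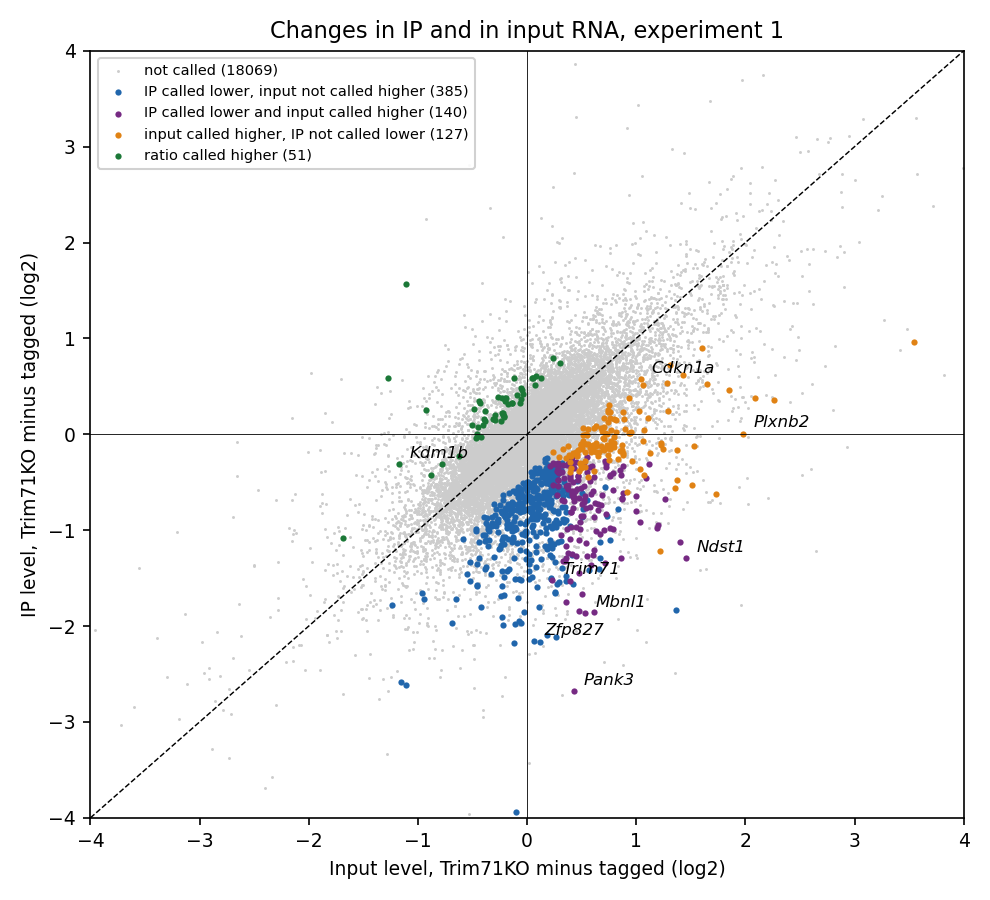
Each point is a gene of experiment 1, placed by its log2 change in input level (horizontal axis) and in IP level (vertical axis), Trim71KO minus tagged, with equal change on the dashed diagonal and 24 genes beyond the axis limit of 4, none of them called, not drawn. Called genes are coloured by class, and the 652 falls in the ratio lie below the diagonal, 385 of them with a lower IP level and no rise in input.

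The classes differed in where the change lay. The 385 genes whose IP level fell without a rise in input had a median ratio change of -0.82, made of -0.80 in IP and 0.05 in input. In the 140 genes with both changes the median was -1.20, with -0.64 in IP and 0.47 in input. The 117 genes with a rise in input alone had a median of -0.80, with -0.12 in IP and 0.71 in input. Since the same libraries give the class and the change, these medians are descriptions.

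Pank3 led the genes whose IP level fell. It encodes a pantothenate kinase, the first enzyme of coenzyme A synthesis, and the gene lies on chromosome 11 at 35769495 to 35791285 of GRCm38. Its IP level was 1038, 1088 and 1226 CPM in tagged cells and 203.2, 178.9 and 142.8 CPM in Trim71KO cells. In input it stood at 30.95, 27.01 and 26.04 CPM against 37.95, 39.11 and 35.73 CPM. The groups do not overlap in either fraction, and the drop in IP was the larger part of the change. The IP level fell by 2.67 (SE 0.12) and input rose by 0.43 (SE 0.12), which gave a ratio change of -3.10 (SE 0.17, edgeR adjusted p 3.21e-11). Its recovery over input was 39.9-fold in tagged and 4.65-fold in Trim71KO cells, still above the 1.53-fold of untagged cells.

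Mbnl1, which encodes a muscleblind-like regulator of alternative splicing on chromosome 3 (60472559 to 60629750), followed the same course. Its IP level was 284.7, 285.9 and 330.4 CPM in tagged and 99.5, 80.25 and 67.95 CPM in Trim71KO cells. Input was 11.94, 9.519 and 8.806 CPM against 15.96, 13.74 and 14.08 CPM. Again the fractions moved apart, IP by -1.86 (SE 0.13) and input by 0.53 (SE 0.15), and the ratio change was -2.40 (SE 0.19, edgeR adjusted p 1.5e-08). Zfp827, a zinc finger gene on chromosome 8 (79027486 to 79193768), was the cleaner case of a fall in IP. Its IP level went from 914.2, 815.0 and 985.2 CPM to 241.5, 199.2 and 167.5 CPM, while input stayed at 19.57, 14.74 and 17.93 CPM against 17.53, 19.78 and 17.35 CPM. The IP groups lie far apart and the input groups overlap. The ratio change of -2.23 (SE 0.18, edgeR adjusted p 1.74e-08) thus came almost wholly from IP (-2.16), with an input change of 0.07 that was not called. Recovery over input was 52-fold in tagged and 11.1-fold in Trim71KO cells.

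**Figure D2:**
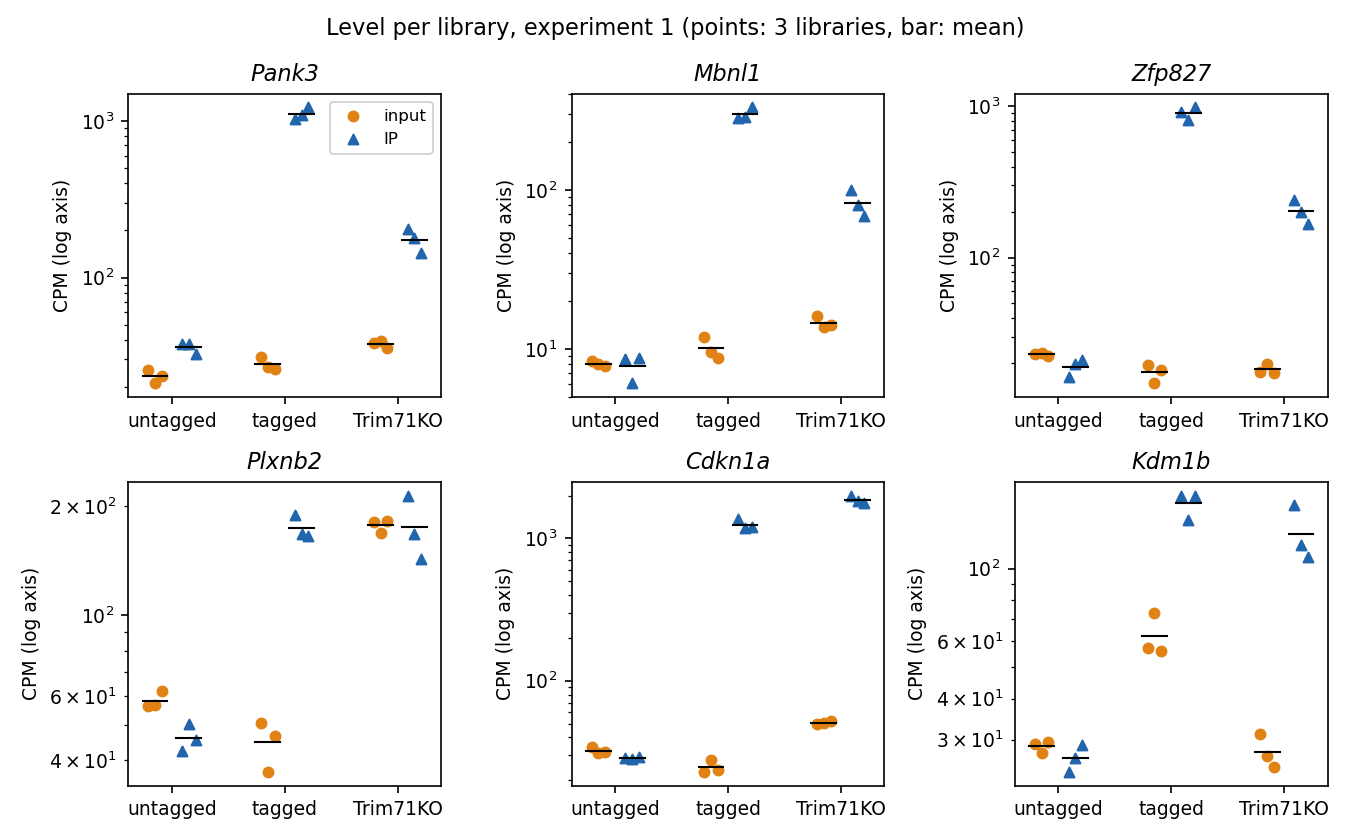
CPM per library on a log axis for 6 genes in untagged, tagged and Trim71KO cells of experiment 1, with circles for input, triangles for IP and bars for the mean of 3 libraries. Pank3, Mbnl1 and Zfp827 drop in Trim71KO IP, and Plxnb2 and Cdkn1a rise in Trim71KO input. Kdm1b input is higher in tagged cells than in Trim71KO and in untagged cells.

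Ndst1, an N-deacetylase and N-sulfotransferase of heparan sulfate synthesis, shifted in both fractions to a similar extent. In IP it stood at 215.4, 207.6 and 251.6 CPM in tagged and 99.16, 92.45 and 84.65 CPM in Trim71KO cells, and input was 22.77, 15.2 and 19.92 CPM against 54.03, 53.3 and 51.22 CPM. No value of a group falls within the range of the other. IP fell by 1.29 (SE 0.11) and input rose by 1.45 (SE 0.11), for a ratio change of -2.74 (SE 0.16, edgeR adjusted p 5.82e-11). The ratio dropped from 11.7-fold to 1.74-fold. Ier5, an immediate early response gene, behaved alike with -0.94 in IP and 1.20 in input (ratio change -2.14, SE 0.26). In IP it was at 94.81, 70.79 and 69.52 CPM in tagged and 45.42, 41.65 and 35.26 CPM in Trim71KO cells.

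The fall in IP was the larger part of the change for Spty2d1, Ash1l and Nfib, and the rise in input for Gm32031. Spty2d1, which encodes an SPT2-domain histone chaperone, fell from 406.2 ± 40.24 to 112.7 ± 10.35 CPM in IP and rose from 15.7 ± 2.34 to 23.9 ± 0.713 CPM in input (ratio change -2.46, SE 0.15). Gm32031, a predicted gene, lies directly next to Spty2d1 on chromosome 7 (47008554 to 47009008, with Spty2d1 ending at 47008414). It went from 16.69 ± 3.559 to 7.631 ± 0.6103 CPM in IP and from 1.001 ± 0.2005 to 2.611 ± 0.6035 CPM in input, a ratio change of -2.53 (SE 0.35) made of -1.13 in IP and 1.40 in input. Reads of neighbouring genes can be shared, and whether that was so here was not tested. Ash1l, a histone methyltransferase gene, had -1.67 in IP and 0.51 in input, and Nfib, a transcription factor gene, had -1.75 and 0.36. Their IP levels fell from 993.5 ± 118.1 to 312.8 ± 52.74 CPM and from 849.0 ± 98.62 to 253.0 ± 54.36 CPM.

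The IP-to-input ratio in Trim71KO cells lay near or below that of untagged cells for some RNAs and not for others. Ratios of Trim71KO and untagged cells were not tested against each other. Mpped2, a metallophosphoesterase gene, had IP-to-input ratios of 4.8-fold in tagged, 0.964-fold in Trim71KO and 0.793-fold in untagged cells. Scai, which encodes a suppressor of cancer cell invasion, went from 4.04-fold to 0.832-fold, against 1.43-fold without tag. In IP Scai stood at 38.23, 53.73 and 58.92 CPM in tagged and 12.28, 13.56 and 9.362 CPM in Trim71KO cells, with input not called (0.18, edgeR adjusted p 0.4). Of all 652 genes called lower, 596 had an IP level called above input in tagged cells and 475 still had so in Trim71KO cells. Over all 18772 genes the counts were 6088 and 5633. The same libraries chose the 652 genes, so a lower ratio in Trim71KO than in tagged cells is built in. Over the 652 the median IP-to-input ratio was 4.44-fold in tagged, 2.21-fold in Trim71KO and 0.96-fold in untagged cells. For the 140 genes with both changes it was 7.33-fold, 2.99-fold and 0.947-fold.

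Other ratios fell although the IP level did not. Plxnb2, which encodes the semaphorin receptor plexin B2 (chromosome 15, 89155546 to 89182018), stood at 188.3, 167.4 and 165.5 CPM in tagged IP and at 213.2, 167.6 and 142.8 CPM in Trim71KO IP. Input was 50.71, 37.16 and 46.77 CPM in tagged and 180.5, 168.3 and 182.3 CPM in Trim71KO cells. The IP groups overlap throughout and the input groups are far apart. The change was 0.01 in IP (SE 0.12) and 1.98 in input (SE 0.13), so the ratio change of -1.97 (SE 0.17, edgeR adjusted p 4.92e-08) rested on input.

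The same pattern held for Axl, a receptor tyrosine kinase gene, with -0.16 in IP and 1.37 in input (ratio change -1.54, SE 0.24). Vstm5, a membrane protein gene, had -0.15 and 1.25 (ratio change -1.40, SE 0.28), and Arhgef5 had -0.09 and 1.23 (ratio change -1.32, SE 0.23). Arhgef5 input was 5.292, 2.753 and 3.383 CPM in tagged and 8.24, 9.734 and 8.632 CPM in Trim71KO cells, while its IP was 20.33, 21.06 and 23.61 CPM against 21.45, 21.21 and 18.18 CPM. Only the input separated the genotypes. Rab11fip5, a vesicle transport gene, met the same rule but was bound by beads without tag. In IP it stood at 5053, 6210 and 4642 CPM in untagged cells, against 656.3, 883.0 and 1282 CPM in tagged and 276.8, 615.4 and 965.5 CPM in Trim71KO cells. Its ratio change of -1.52 (SE 0.42, edgeR adjusted p 0.0413) held without tagged IP 1 or Trim71KO IP 1 or 3 and was lost without each of the other 9 libraries, from -1.91 to -1.11 over the 12 fits. It was lost as well with library size alone (-1.40) and with only the compared groups (-1.54).

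The 51 rises were small. In 20 the IP level rose with input not called, in 21 input fell with the IP level not called, in 4 both occurred, in 2 IP rose more than input and in 4 input fell more than IP. Their median ratio change was 0.50. Rcn3, a reticulocalbin gene, rose by 0.71 (SE 0.18) with 0.59 in IP, and its IP level of 20.42 ± 3.047 CPM in tagged cells became 30.78 ± 5.277 CPM. Swt1, an endoribonuclease gene, rose by 0.63 (SE 0.12) with 0.24 in IP and -0.39 in input. Etnk2, an ethanolamine kinase gene, rose by 0.65 (SE 0.16), from 11.27, 11.22 and 11.38 CPM in tagged IP to 14.13, 15.12 and 14.98 CPM in Trim71KO IP. The Etnk2 call was lost when libraries of the same genotype and number were fitted as a block. The IP-to-input ratio of these 3 genes in tagged cells was 0.544-fold, 1.03-fold and 1.01-fold; none of them was enriched more than 1.03-fold. The Rcn3 call was lost without tagged input 2 (0.71), tagged IP 3 (0.60), Trim71KO input 3 (0.75) or Trim71KO IP 2 (0.76), and with only the compared groups in the fit (adjusted p 0.0652).

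Among rises that rested on input, Kdm1b was recovered with the tag. This histone demethylase gene had 57.23, 72.94 and 56.06 CPM in tagged input and 31.1, 26.78 and 24.79 CPM in Trim71KO input, while IP was 166.9, 140.9 and 166.5 CPM against 156.0, 118.3 and 108.5 CPM. Input separates the genotypes and IP overlaps. Input fell by 1.17 (SE 0.13), IP changed by -0.31 (edgeR adjusted p 0.0526), and the ratio went from 2.55-fold to 4.64-fold (0.86, SE 0.18, edgeR adjusted p 0.0042). Untagged input stood at 29.03, 27.36 and 29.41 CPM, so tagged input was the group that stood apart. In experiment 2 mean Kdm1b input was 64.3 CPM in tagged and 61.91 CPM in Trim71KO cells. Smim27 (1.18, SE 0.29) and the predicted gene Gm5846 (0.79, SE 0.21) had lower input, by 0.93 and 0.44. Over the 12 fits with a library left out Smim27 ranged from 1.08 to 1.42 and Gm5846 from 0.74 to 0.99, and each lost its call in 5 of them. These were tagged input 2, tagged IP 2, Trim71KO input 1 and 3 and Trim71KO IP 2 for Smim27, and tagged input 3, tagged IP 1 and 3 and Trim71KO input 2 and 3 for Gm5846, which was also lost with only the compared groups in the fit (adjusted p 0.0951). A block of replicate numbers, within fraction or within genotype, removed the Gm5846 call as well.

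Experiment 2 measured the same contrast in libraries that experiment 1 did not use. Of the 652 genes called lower, 103 were called lower there (15.8%) against 0.787% of all 18553 genes tested in both, and 0 were called higher against 0.782% (edgeR; 4 at an unadjusted p under 0.05). These 103 make up 70.5% of the 146 lower calls of experiment 2. A change below 0 was seen for 548 of the 652 genes (84%), against 49.1% of all genes, and the median was -0.25 against 0.01. Of the 51 genes called higher, 2 were called higher in experiment 2, with a median of 0.04 over the 51. These are Marchf5 (0.53 and 0.51) and Spast (0.52 and 0.55), named after their values were seen. The labels do not say whether both experiments used the same clones, so a repeat may not be biologically independent.

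The classes differed in how often they were called again. Of the 140 genes with a fall in IP and a rise in input, 46 were called lower in experiment 2 (32.9%), and 132 had a change below 0. Of the 385 genes with a lower IP level and no rise in input it was 53 (13.8%), and of the 117 genes with a rise in input alone it was 4 (3.42%). None of the 10 genes whose input rose more than IP was called. The medians in experiment 2 were -0.46, -0.24, -0.13 and -0.01. As the first of these classes also had larger changes in experiment 1, whether the class or the size goes with the repeat was not tested. The levels of the fractions repeated in part. The IP level was lower in experiment 2 for 164 of the 385 genes (42.6%) and 62 of the 140 (44.3%), against 16.8% of all genes. The input level was higher there for 53 of the 117 genes (45.3%) and 65 of the 140 (46.4%), against 14.2%.

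Named genes show both outcomes. In experiment 2 Pank3 went from 822.9 to 198.4 mean CPM in IP and from 44.75 to 57.64 CPM in input (ratio change -2.42, SE 0.18, edgeR adjusted p 1.18e-08). Zfp827 went from 303.6 to 141.5 CPM in IP and from 17.08 to 19.94 CPM in input (-1.32, SE 0.26, edgeR adjusted p 0.00905). Nfib (-1.66), Ash1l (-1.41), Ier5 (-1.72) and Scai (-1.03) were called lower too. Plxnb2 was called again (-0.77, SE 0.17, edgeR adjusted p 0.0173), with a mean IP level of 114.9 CPM in tagged and 156.5 CPM in Trim71KO cells and an input of 63.53 and 147.7 CPM. Axl (-0.73), Vstm5 (-0.60), Arhgef5 (-0.55) and Rab11fip5 (-1.32) were not called there, nor were Kdm1b (0.17), Rcn3 (0.04) and Swt1 (0.15). A joint fit of the 24 tagged and Trim71KO libraries of both experiments tested whether the ratio change itself differed. It called 4 of 18599 genes (0.0215%), of which Mpped2 alone is among the named genes. That count was 58 without Trim71KO IP 1, 7 without tagged input 1, 2 without tagged IP 1 or Trim71KO input 2, and 1 without each of the other 8 libraries. At an unadjusted p under 0.05 the joint fit with all libraries gave 2015 of 18599 genes. The median SE of the difference was 0.29, against 0.22 for the ratio change of experiment 1, so smaller differences can have been missed.

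**Figure D3:**
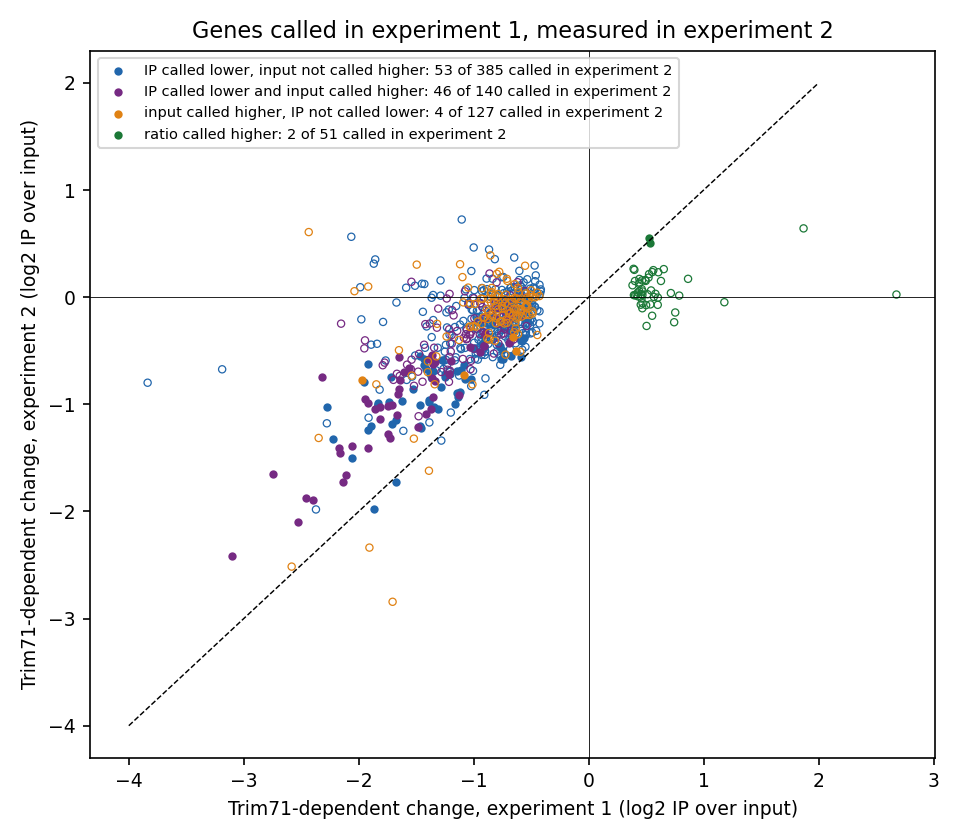
Ratio change of the 703 genes called in experiment 1 (horizontal axis, log2) against the ratio change of the same genes in experiment 2 (vertical axis, log2), coloured by class, with filled points for genes called in experiment 2 in the same direction and the dashed line for equal change. Most genes called lower lie below 0 on the vertical axis and above the dashed line, which is the smaller change in experiment 2. Since experiment 1 chose the genes, a smaller change in experiment 2 is partly built in.

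The genes called lower also differed from all genes in other features. In experiment 2, 506 of the 652 (77.6%, or 13.5% of that list) were called higher in tagged than in untagged cells, a set that holds 20.1% of genes tested in both. In that experiment 117 of the 652 (17.9%, or 15.7% of that list) were also called lower in cells labelled Ago2KO, against 4.02% of all genes, and 4 were called higher against 0.393%. For the 140 genes with both changes the Ago2-dependent share was 34 of 140 (24.3%), and for the 117 with a rise in input alone it was 10 (8.55%). Hs2st1, Dcp2, Pank3, Mbnl1 and Cnot6 were among the named genes so called, at -0.98, -1.11, -0.99, -0.93 and -0.79. Zfp827, by contrast, had an Ago2-dependent change of -0.01 (edgeR adjusted p 0.997), and Ndst1 of -0.31 (0.574). The genes called lower were longer, with a median of 5871.5 bases in the deposited length column against 3458.5 over all genes tested. Their median mean log2 CPM was 5.48 against 3.71. This mean covers the same 12 libraries, IP and input together, so it includes recovery in IP and is not independent of the test. Of those matched to RefSeq, 95.5% were protein coding against 89.3%. Longer and more abundant genes have more counts and a smaller SE, and its part in these shares was not tested.

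Genes reported as TRIM71 targets were examined as a list of 9. It was written with earlier results of these data known, so its direction is not independent evidence. Of the 9, 6 were called lower and 0 higher, with a median of -0.92 against -0.04 over all genes (3.47% called lower). The median was -0.17 in IP and 0.87 in input. For each of the 13 gene lists with a called member, the count of higher calls was 0 with edgeR, with DESeq2 and at an unadjusted p under 0.05. Of the 6, Mbnl1 (-1.89) and Plxnb2 (-0.77) were called lower in experiment 2, while Cdkn1a (-0.0012), Rbl1 (-0.08), Rbl2 (-0.27) and Inhbb (-0.19) were not called there. In Mbnl1 alone of these 6 did the IP level fall. Cdkn1a, which encodes the cyclin-dependent kinase inhibitor p21, rose in both fractions. Its IP level was 1369, 1175 and 1208 CPM in tagged and 1991, 1834 and 1770 CPM in Trim71KO cells, and its input was 22.89, 27.64 and 23.46 CPM against 49.96, 50.65 and 51.79 CPM. Both fractions separate the genotypes without overlap. IP rose by 0.58 and input by 1.04, so the ratio change of -0.47 (SE 0.13, edgeR adjusted p 0.0474) came with a higher IP level in CPM. CPM is relative to the library and does not give the amount of RNA on the beads. Its call was lost without 9 of the 12 libraries in turn and held without tagged input 2, tagged IP 2 or Trim71KO IP 1, from -0.51 to -0.32, and it was lost in 5 of 7 other settings. Neither rise was seen in experiment 2. Mean Cdkn1a input there was 64.41 CPM in tagged and 58.88 CPM in Trim71KO cells, and mean IP was 1671 and 1527 CPM.

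Inhbb, which encodes the activin subunit beta B, had 3131, 2666 and 2903 CPM in tagged IP and 3600, 2837 and 2367 CPM in Trim71KO IP. Its input was 218.4, 226.1 and 244.6 CPM against 433.8, 439.5 and 442.5 CPM, so that input alone separated the genotypes (0.93, SE 0.11) and the ratio change was -0.92 (SE 0.16). The pocket protein genes Rbl1 and Rbl2, whose products restrain E2F-driven transcription, behaved alike. Rbl2 changed by -0.17 in IP and 0.87 in input (ratio change -1.04, SE 0.19), and its ratio went from 49.9-fold to 24.3-fold. Rbl1 changed by -0.12 in IP and 0.63 in input (ratio change -0.76, SE 0.17). The Rbl1 call was lost without tagged input 2 (-0.61) or 3 (-0.61), Trim71KO input 2 (-0.65) or 3 (-0.62), or Trim71KO IP 2 (-0.67) or 3 (-0.55). Egr1, an immediate early transcription factor gene, fell from 329.7 ± 77.67 to 72.02 ± 5.733 CPM in IP and from 149.0 ± 37.73 to 35.5 ± 3.538 CPM in input. Its ratio change of -0.13 was not called and turned to between 0.01 and 0.10 without tagged input 2, tagged IP 1, Trim71KO input 3 or Trim71KO IP 2. Nab2, a corepressor of Egr1, fell by 0.55 in IP and 0.78 in input, with a ratio change of 0.23 that was not called. Hoxa5 was hardly detected in input, at 0.0, 0.0 and 0.1611 CPM in tagged and 0.0, 0.1762 and 0.1328 CPM in Trim71KO cells, so its ratio gives no fold. In IP it fell from 2.361, 2.383 and 2.477 CPM to 0.4205, 0.519 and 0.3901 CPM.

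Other lists overlap with these genes. Among 11 cell-cycle brakes 3 were called lower (3.47% of all genes), the same Cdkn1a, Rbl1 and Rbl2, and 0 higher (0.272%), with a median of -0.36. The median was -0.13 without Trim71KO input 3. Among 16 tested genes of the Nodal, activin and Lefty pathway 2 were called lower (3.47% of all genes), Inhbb and the inhibitory Smad7, with a median of -0.17, and 9 of the 16 rose in input (16.5% of all genes). Lefty1 and Lefty2, feedback inhibitors of Nodal, rose by 1.72 and 1.62 in input and by 1.23 and 1.14 in IP, and their ratio changes of -0.49 and -0.47 were not called. Smad7 rose by 0.23 in IP and 0.76 in input (ratio change -0.52, SE 0.12). Its call was lost with library size alone (-0.41) and without 8 of the 12 libraries in turn, from -0.58 to -0.40, and held without tagged input 2, tagged IP 1 or 2 or Trim71KO IP 1.

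The miR-290 and miR-302 families are the microRNAs that embryonic stem cells are best known for, and Argonaute proteins loaded with them are a major route of Tnrc6a to mRNA. Of 11 mature 3p arms of these families in the RefSeq table for GRCm38.p6, 5 share the seed AAGUGCU, bases 2 to 8 from the 5′ end. Their sequences are given, with the seed in capitals, because the next paragraph takes up reported targets of these microRNAs. They come from chromosome 7 (miR-291a, miR-294 and miR-295) and chromosome 3 (miR-302b and miR-302d).
miR-291a-3p: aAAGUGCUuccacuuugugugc
miR-294-3p: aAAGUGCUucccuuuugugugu
miR-295-3p: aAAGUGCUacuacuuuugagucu
miR-302b-3p: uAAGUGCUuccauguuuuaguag
miR-302d-3p: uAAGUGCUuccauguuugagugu

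Among 11 published miR-290 targets 2 were called lower (3.47% of all genes), Rbl2 and Cdkn1a, which are shared with the TRIM71 list, and 0 higher (0.272%). The median ratio change was -0.40, with -0.39 in IP and -0.02 in input, or -0.23 without Trim71KO input 2. In 8 of the 11 the IP level fell (21.1% of all genes). Casp2, a caspase gene, changed by -0.63 in ratio and fell by 0.61 in IP. Ei24, a p53-induced gene, changed by -0.40 and fell by 0.58 in IP, and the kinase gene Wee1 by -0.36 and 0.38. None of these ratio changes was called. Their IP-to-input ratios in Trim71KO cells remained at 23.3-fold, 12.3-fold and 9.48-fold, against 36.0-fold, 16.3-fold and 12.2-fold in tagged cells. Dkk1, a Wnt inhibitor gene, had changes of -5.03 in IP and -5.95 in input, both called, so that its ratio (0.92, SE 1.06) was not resolved.

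The mRNAs of the silencing machinery itself were lower in part. Among the 7 GW182 and Argonaute genes 4 were called lower (3.47% of all genes) and 0 higher (0.272%), with a median of -0.95. All 7 changes were below 0, as were 10238 of all 18772. Tnrc6b, the second GW182 paralog, was at 213.4, 254.3 and 296.7 CPM in tagged IP and at 207.2, 167.4 and 131.9 CPM in Trim71KO IP, with input of 51.81, 32.34 and 42.79 CPM against 59.83, 66.99 and 66.09 CPM. Neither fraction overlaps between the genotypes, though the IP groups nearly meet. IP fell by 0.59 and input rose by 0.61 (ratio change -1.20, SE 0.21, edgeR adjusted p 0.000678). Ago1 had -0.40 in IP and 0.55 in input (ratio change -0.95, SE 0.19), and Ago3 fell in IP from 49.48 ± 6.853 to 32.13 ± 6.063 CPM with input not called (SE of its ratio change 0.21, edgeR adjusted p 0.00458). Tagged input 2 was the lowest library for Tnrc6a, Tnrc6b, Ago1 and Ago3. Without it the list median was -0.72. Mean untagged input of these 4 genes was 101.9, 52.89, 89.67 and 14.07 CPM. Each of these values lay between the tagged and the Trim71KO input mean. Ago2 was not called (-0.13, SE 0.25), with 1024, 1266 and 1630 CPM in tagged IP and 1583, 1302 and 1130 CPM in Trim71KO IP, and its sign turned without tagged input 2 (0.15), tagged IP 3 (0.06) or Trim71KO IP 3 (0.07). Ago4 (-1.74, SE 0.59) and Tnrc6c (-0.25, SE 0.15) were not called. None of the 4 called genes was called in experiment 2, where Tnrc6b stood at -0.51, Ago1 at -0.35 and Ago3 at -0.43.

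Among 26 genes of deadenylation, decapping and P-bodies, cytoplasmic granules that hold repressed mRNA, 2 were called lower (3.47% of all genes) and 0 higher (0.272%), with a median of -0.09. Dcp2, the decapping enzyme gene, fell from 1309 ± 251.8 to 751.9 ± 65.96 CPM in IP with input not called (ratio change -0.76, SE 0.17). It was lost without tagged input 2 (-0.58) or 3 (-0.67), Trim71KO input 2 (-0.67) or 3 (-0.67) or Trim71KO IP 2 (-0.68), and was called in experiment 2 (-0.58). Cnot6, a CCR4-type deadenylase gene, fell by 0.93 in IP and 0.38 in input (ratio change -0.55, SE 0.15). This call held without tagged input 1, tagged IP 1 or 2 or Trim71KO IP 1 and was lost without each of the other 8 libraries, from -0.60 to -0.37, and in 5 of 7 other settings, and Cnot6 was not called in experiment 2 (-0.46, edgeR adjusted p 0.128). The list median was 0.04 without Trim71KO IP 3. Of the 4 TRIM-NHL genes, Trim71 and Trim32 were called lower. Trim32, a ubiquitin ligase gene, had 158.8, 133.4 and 150.5 CPM in tagged IP and 125.3, 98.48 and 98.46 CPM in Trim71KO IP (ratio change -0.80, SE 0.14), and was not called in experiment 2 (-0.15, edgeR adjusted p 0.692). Trim2 (-0.10) and Trim3 (-0.06) were not called.

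In the muscleblind and pantothenate kinase lists a single member was called lower (3.47% of all genes). Both lists were written with earlier results of these data known, so this is a description. Among muscleblind genes Mbnl1 was called, while Mbnl2 changed by -0.54 (SE 0.21, edgeR adjusted p 0.195) and Mbnl3 by -0.41 (SE 0.35, adjusted p 0.657). Mbnl2 was called without tagged input 1 (-0.68) or Trim71KO IP 1 (-0.63). In tagged cells the IP-to-input ratio was 29.8-fold for Mbnl1, 2.71-fold for Mbnl2 and 3.26-fold for Mbnl3. Among pantothenate kinases Pank3 was called, while Pank1 (-0.35), Pank2 (0.16) and Pank4 (-0.29) were not. Pank1 fell by 0.65 in IP, from 53.84 ± 2.433 to 34.29 ± 7.532 CPM. Pank2 and Pank4 had ratios of 1.13-fold and 1.33-fold in tagged cells, against 39.9-fold for Pank3. The list median was -0.32, or -0.14 without Trim71KO IP 3 and -0.16 without Trim71KO input 3. Differences between paralogs were not tested.

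Of 15 tested heparan sulfate genes 3 were called lower (3.47% of all genes) and 0 higher (0.272%), with a median of -0.16 that was 0.01 without tagged input 2. Besides Ndst1 these were the sulfotransferase genes Hs2st1 and Hs6st1. Hs2st1 fell in IP from 186.8 ± 14.9 to 114.5 ± 25.58 CPM with input at 45.42 ± 0.8922 and 46.67 ± 2.44 CPM (ratio change -0.75, SE 0.18), and was called in experiment 2 as well (-0.58, SE 0.11). Its call here held without each of the 3 tagged IP libraries or Trim71KO IP 1 and was lost without each of the other 8, from -0.84 to -0.49. Hs6st1 fell in IP from 1137 ± 120.1 to 837.9 ± 97.49 CPM (ratio change -0.68, SE 0.15). It was lost without tagged input 2 (-0.53), each Trim71KO input (-0.59 to -0.61) or Trim71KO IP 2 (-0.56) or 3 (-0.53), and was not called in experiment 2 (-0.12, edgeR adjusted p 0.849). Of 10 tested plexin and neuropilin genes Plxnb2 and Plxnc1 were called lower (3.47% of all genes), in different ways. Plxnc1, a receptor for semaphorin 7A, was at 6.321, 6.303 and 5.497 CPM in tagged IP and 2.355, 1.687 and 1.17 CPM in Trim71KO IP, and input did not separate (0.8672 ± 0.298 and 0.9418 ± 0.1791 CPM). Its ratio change was -1.91 (SE 0.42, edgeR adjusted p 0.00815), or -1.80 and not called without Trim71KO input 3, and it was not called in experiment 2 (-1.13, edgeR adjusted p 0.268).

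Of 9 tested genes of the Pumilio, Nanos, Roquin and Zfp36 repressor families 1 was called lower (3.47% of all genes) and 0 higher (0.272%), with a median of 0.05. This was Rc3h2, which encodes Roquin-2, an RNA-binding protein that promotes mRNA decay. In IP it was at 342.8, 356.7 and 451.9 CPM in tagged and 144.0, 122.9 and 117.4 CPM in Trim71KO cells, with input of 44.0, 33.55 and 33.56 CPM against 29.71, 32.51 and 32.54 CPM. The IP groups lie far apart, with -1.58 in IP (SE 0.11) and a ratio change of -1.36 (SE 0.16, edgeR adjusted p 5.36e-06). It was called in experiment 2 (-0.69). The paralog Rc3h1 had a ratio change of -0.15 and 1.22-fold recovery in tagged cells. Of 89 cytosolic ribosomal protein genes 0 were called by edgeR (3.74% of all genes) or DESeq2. At an unadjusted p under 0.05 there were 1 higher and 0 lower, against 2810 of all 18772 genes in either direction. The median was 0.07, or 0.35 without Trim71KO IP 1. Of 13 mitochondrially encoded mRNAs 1 was called lower (3.47% of all genes), ND5 (-0.76, SE 0.17), with a median of -0.30. ND5 was not enriched with the tag, at 0.457-fold over input in tagged, 0.27-fold in Trim71KO and 1.25-fold in untagged cells. The list median in tagged cells was 0.239-fold. All 13 fell in the IP level (21.1% of all genes) and 10 fell in input (17.4%). The ND5 call was lost without tagged input 3 (-0.64), Trim71KO input 1 (-0.66) or 3 (-0.62), or Trim71KO IP 2 (-0.69), and in experiment 2 ND5 stood at 0.19 and was not called (edgeR adjusted p 0.797).

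**Figure D4:**
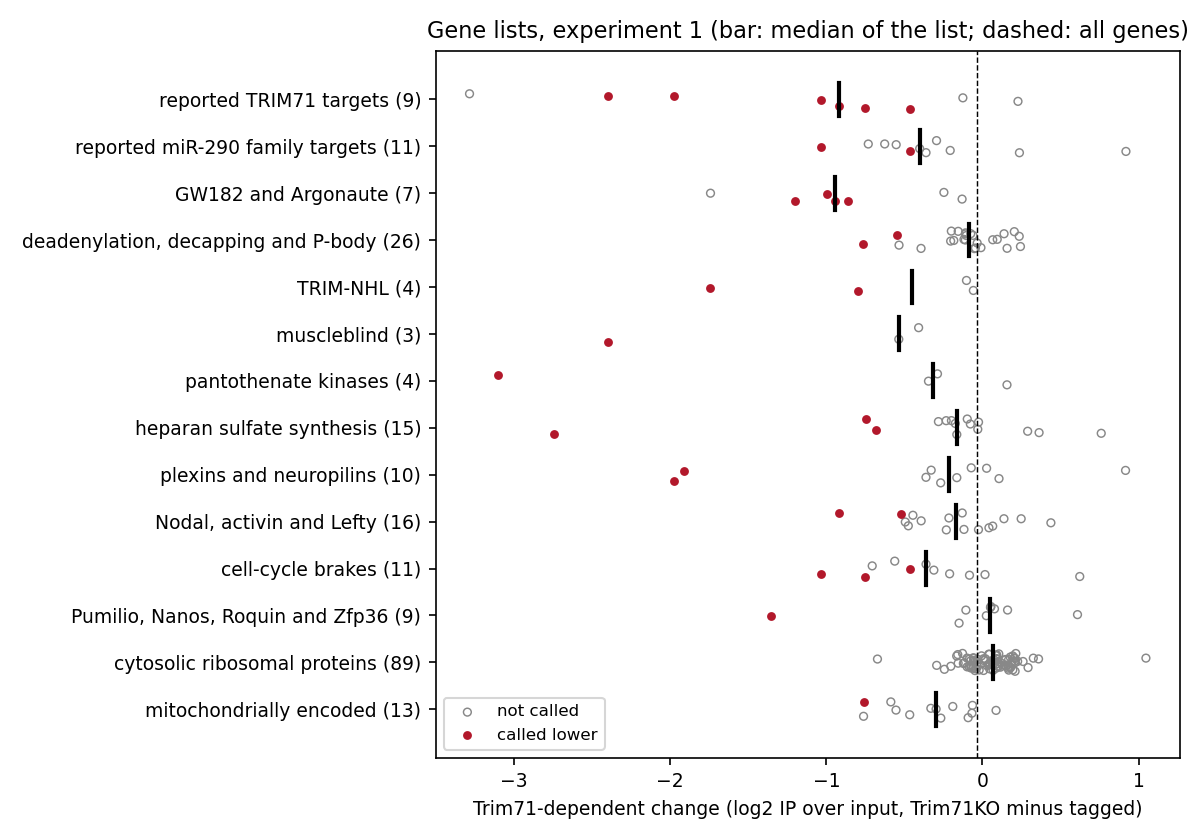
Ratio change (log2 IP over input, Trim71KO minus tagged) of each tested member of the gene lists in experiment 1, one row per list with the number tested in parentheses. Filled points are genes called lower, bars are list medians, and the dashed line is the median of all genes at -0.04; the GW182 and Argonaute genes and the reported TRIM71 targets have medians of -0.95 and -0.92.

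The number of calls depended on single libraries more than the leading genes did. With each of the 12 libraries left out in turn, 299 to 847 genes were called lower and 21 to 588 higher, and 265 of the 652 lower calls were kept in all 12 fits. All 265 were also kept in the planned settings other than leaving out a library. Of the 265, 240 had an IP level called lower and 94 were called lower in experiment 2. The share of lower calls with a lower IP level ranged from 71.9% to 85.4% over these 12 fits. Pank3, Ndst1, Gm32031, Spty2d1, Mbnl1, Mpped2, Scai, Zfp827, Ash1l, Ier5 and Nfib kept their calls in each of these fits, as did Plxnb2, Axl, Vstm5 and Arhgef5. Of the 51 higher calls 9 were kept in all 12 fits and 5 in all planned settings.

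**Figure D5:**
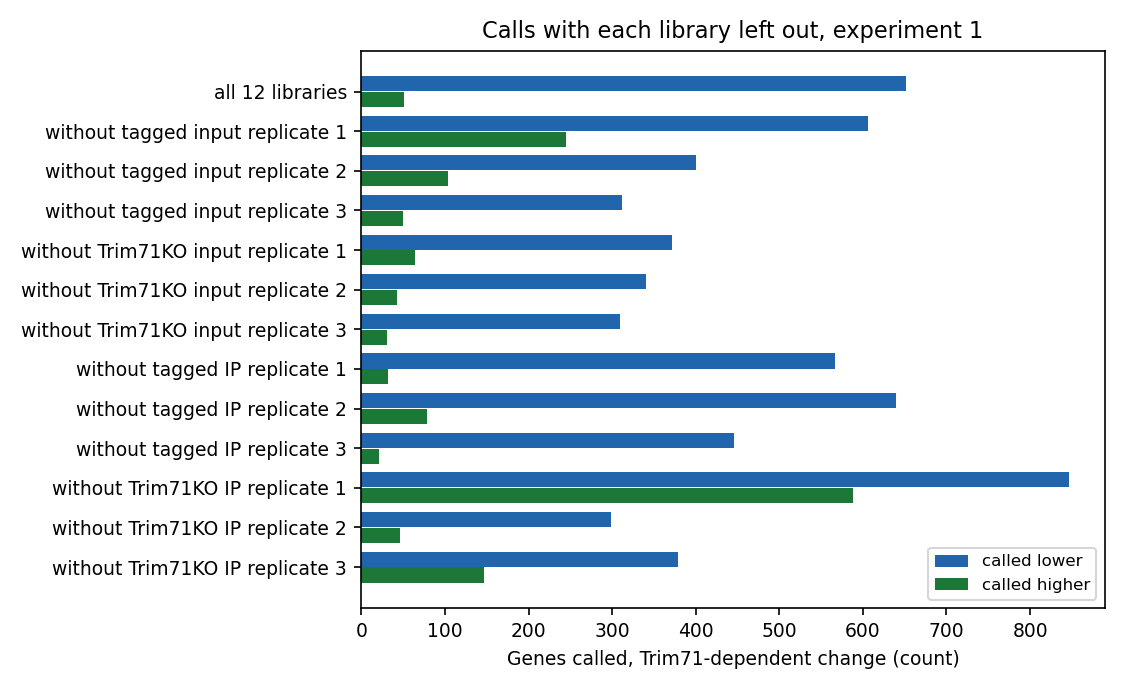
Number of genes called lower and higher in the ratio change (horizontal axis) with all 12 libraries and with each library left out. Lower calls range from 299 to 847, and higher calls reach 588 without Trim71KO IP replicate 1.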

How the data were processed

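RNA immunoprecipitation sequencing was analysed from the deposited tables of raw read counts per gene, 1 per experiment, with samples grouped by title and experiment. Per the submitters' processing notes, reads were demultiplexed with bcl2fastq 2.20 and aligned with STAR 2.7.3a to GRCm38 (mm10). The counting tool, and its handling of strand and overlapping genes, is not given in the sources used here, so values of overlapping genes are uncertain. The authors deposited 18825 rows for experiment 1, of which 3194 carry no symbol. RPKM columns were not used.

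Counts were tested in R 4.3.3 with edgeR 4.0.16: TMM, filterByExpr (18772 genes kept), glmQLFit over all 18 libraries of experiment 1 with a mean per group, glmQLFTest, and Benjamini-Hochberg adjustment. SE is the log2 change over the square root of F. Experiment 2 was fitted alone and then jointly. A group with at most 3 counts in each library is at the floor. The fit was tested on simulated data. DESeq2 1.42.0, RLE size factors, library size alone, no filter, fewer groups, replicate blocks and left-out libraries were alternatives. Chi-square per gene between replicates was 2.92 to 46.1, above sampling noise, so each library counted separately.

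The members and gene lists were chosen with earlier results of these data known. Mitochondrial genes were matched by the names in the table (ND1 to CYTB) in place of mt- symbols. Named genes were the targeted genes, list members, and genes ranked by size of change among those called, with a mean log2 CPM of 2 or more and fully separated IP minus input differences: 8 falls with IP lower, 5 with a rise in input only, 3 with both, and 3 rises of each kind. Coordinates, gene types and microRNAs are from RefSeq (GRCm38.p6). Precision covers counting and library spread only.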

Additional observations from a re-analysis of the deposited data

Results flagged for a closer look

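A joint fit of the tagged and Trim71KO libraries of both experiments called a difference in the ratio change, experiment 1 minus experiment 2, for 4 genes (edgeR, Benjamini-Hochberg adjusted over 18599 genes). For Mpped2 it was -1.56 (SE 0.23, adjusted p 0.00482), since the ratio change was -2.32 in experiment 1 and -0.74 in experiment 2. The other 3 lie outside the naming rule and were chosen after their values were seen. For Phf20l1 it was -1.27 (SE 0.22, adjusted p 0.0363), with -1.92 and -0.62. For Cpeb1, which encodes a cytoplasmic polyadenylation element binding protein, it was -1.34 (SE 0.24, adjusted p 0.046), with -0.53 (not called) and 0.82 (called). For Pias3 it was -0.99 (SE 0.18, adjusted p 0.046), with -0.93 and 0.08, and its change in experiment 1 came with an input rise of 0.95 and an IP change of 0.03. All 4 fits rest on 3 libraries per group.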

How the results depend on the processing

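The alternatives were fixed with earlier results known, except leaving out tagged input 2 and Trim71KO IP 1 together, which was chosen after seeing the data. Of the called genes 251 changed at least 2-fold. Library size alone gave 408 lower and 133 higher calls, 199 genes with IP lower and input not higher, and 2 genes that differed between experiments. Higher calls numbered 205 with DESeq2, 8 with only the compared groups and 18 with the replicate block by dish. Without tagged input 2 and Trim71KO IP 1 there were 1341 calls, 512 of them higher, and the change of Egr1 turned from -0.13 to 0.027. With 1 library left out, calls ranged from 339 (without Trim71KO input 3) to 1435 (without Trim71KO IP 1), lower calls from 299 to 847 and higher calls from 21 to 588. Genes with IP lower and input not higher ranged from 159 to 496, those with both from 71 to 166, and those with input higher and IP not lower from 45 to 179. Lower calls repeated in experiment 2 ranged from 95 to 103, IP level calls from 5236 to 6886, input level calls from 4703 to 7192, and genes that differed between experiments from 1 to 58. Over these fits Ago2 ranged from -0.32 to 0.15 and Egr1 from -0.29 to 0.10. The causes were not tested. Deviations of same-numbered libraries correlated from -0.24 to 0.45. Between IP and input of a genotype they reached 0.11 at most. For numbers 1, 2 and 3, Trim71KO IP correlated with tagged IP at 0.42, 0.29 and -0.08, and with tagged input at 0.45, 0.17 and -0.02. Whether libraries of a number share a batch was not tested. A replicate block within fraction gave 682 calls and a block by dish 597. The Etnk2 call was lost with the block by dish, and those of Gm5846, Cdkn1a and Cnot6 with both replicate blocks. Depth limits the ratio of genes scarce in input, and 402 genes were at the floor in a group.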
